A study of Homo sapiens with 4 samples.

Results

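The overexpression of WDR4 in A549 cells was set against an empty expression vector by the expression arrays of the samples labelled WDR4 (W4-1) and vector (RK-1), which were 2 of the 4 arrays of the study. A549 is an established human lung adenocarcinoma line. The labels give all 4 groups as transfected A549 cells taken at 48 h: a WDR4 expression construct, its empty vector, an siRNA against PML (siPML) and a control siRNA (siCtrl), with 1 array each. Each array read Cy5-labelled amplified RNA with 31741 probes. The labels give neither the construct's promoter nor the share of cells transfected. A gene was represented by the brightest of its probes that name a single gene, 18255 genes in all, and 9128 of them passed a filter on dim values (a mean of at least 223 intensity units on the log scale over the 4 arrays) and are called kept genes. Differences are those of log2(intensity + 1), WDR4 minus vector, so 1 is 2-fold. With 1 culture and 1 array per group no test was possible. "Higher" and "lower" describe these 2 arrays, and cannot be told apart from differences between single cultures.

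WDR4 is the non-catalytic partner of the methyltransferase METTL1, with which it methylates guanosines of tRNAs and other RNAs, and it can also serve as the receptor through which CUL4 ubiquitin ligases reach PML, the scaffold of PML nuclear bodies. Several of the largest differences were in genes of the unfolded protein response, the programme by which a cell with misfolded protein in its endoplasmic reticulum (ER) makes more chaperones and slows translation. That programme runs through the sensors IRE1, PERK and ATF6. Their transcription factors XBP1, ATF4 and ATF6 act on short promoter elements, of which the ER stress element (ERSE) is the best described.

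The median probe intensity was 134 on WDR4 and 121 on vector, and the upper quartiles were 709 and 715. The scanner's limit was reached by 32 kept genes on WDR4 and 35 on vector. The deposited values were means of paired readings, from which an error of reading was recovered. The standard error of a WDR4 minus vector log2 difference was 0.08 for values of 200 to 600 units, and leaves out all spread between cultures. Brighter values were not covered. Of 31 lung epithelium markers, 13 were kept. The summed intensity of all 31 was 67313 on WDR4 and 71169 on vector. KRT19 read 14534 on WDR4 and 14291 on vector and CDH1, E-cadherin, 6882 and 7828, whereas the surfactant genes SFTPB, at 109 on WDR4 and 107 on vector, and SFTPA1, at 5.99 and 4.49, were below the filter. KRT19 and CDH1 were thus read while these surfactant genes were not, but the list was mixed. The keratin gene KRT8, at 66.0 on WDR4 and 62.7 on vector, was below the filter. ABCA3, at 1026 on WDR4 and 773 on vector, was kept. LAMP3 was kept at 2577 on WDR4 and 2025 on vector, against 146 on siPML and 96.4 on siCtrl. It thus passed the filter through the plasmid arrays only. LAMP3 is also a member of the list of interferon-induced effectors, so its reading does not mark lung epithelium alone. Of 10 macrophage markers 3 were kept, among them CD14 at 5205 on WDR4 and 7453 on vector. TYROBP, at 84.1 on WDR4 and 70.6 on vector, was below the filter. Of 11 fibroblast markers 2 were kept, ACTA2 at 3324 on WDR4 and 3436 on vector and COL1A1 at 542 and 478. COL1A2, at 18.6 on both arrays, was below the filter.

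The overexpressed gene was read by 2 probes that differed in direction. The brighter WDR4 probe read 4708 on WDR4 and 1140 on vector, against 1271 on siPML and 2350 on siCtrl. The WDR4 array thus stood above the other 3, by 4.13-fold over vector (2.05) and by 1.00 on the log2 scale over siCtrl. The other probe read 890 on WDR4 and 1191 on vector, against 1501 on siPML and 2226 on siCtrl, and was lowest on WDR4 (-0.42). The platform annotation does not say which parts of the transcript the probes match, and the raised signal rests on 1 probe.

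Of the 9128 kept genes, 33 (0.362%) exceeded the vector reading by 2-fold or more on WDR4, and 26 (0.285%) were lower by as much. Centring the arrays on their medians gave 27 higher and 38 lower. The median over all kept genes was -0.04, and -0.12 after that centring, so a list median is read beside that value. At 1.5-fold the counts were 282 (3.09%) higher and 305 (3.34%) lower. Of any size, 43.7% of kept genes were above 0 and 56.3% below, and the counts of list members above and below 0 that follow are read beside these shares. As a yardstick, siPML and siCtrl, which share no array with this comparison, differed by at least 2-fold for 600 kept genes (6.57%). The plasmid arrays lay closer together than the siRNA arrays, since the central 95% of differences spanned -0.63 to 0.62 for WDR4 minus vector and -1.19 to 0.97 for siPML minus siCtrl. The difference also varied with brightness, and the median was 0.38 over the 2282 dimmest genes and -0.07 over the 2282 brightest.

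ER stress genes were among the lowest, and 6 of the 26 lower genes carried an ERSE or its variant ERSE-II within 250 bases before their start. The ERSE, CCAAT and CCACG with 9 bases of any kind between them, was found in 22 of 27305 RefSeq promoter windows (0.0806%) and ERSE-II, ATTGG and CCACG with 1 base between them, in 15 (0.0549%), on either strand, in windows of 250 bases before to 50 after the start. Both contain CCACG, which alone is in 37.9% of windows, and no kept gene had both elements. Of the 6 genes 4 had an ERSE and 2 an ERSE-II. DNAJB9 (-2.10), EGR1 (-2.10), MANF (-1.49) and DDIT3 (-1.42), also lower, had neither. The stretches of the 6 genes are shown. They are from RefSeq on GRCh38.p14, 5′ to 3′ on the gene's strand, with the element in capitals.
FICD (chr12:108515108-108515156, plus strand): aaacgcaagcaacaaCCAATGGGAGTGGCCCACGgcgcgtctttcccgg
HSPA5 (chr9:125241376-125241424, minus strand): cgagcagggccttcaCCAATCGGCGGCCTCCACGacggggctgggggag
CRELD2 (chr22:49918539-49918587, plus strand): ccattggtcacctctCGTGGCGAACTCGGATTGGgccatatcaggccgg
ERO1B (chr1:236282168-236282208, minus strand): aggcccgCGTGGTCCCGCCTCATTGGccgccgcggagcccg
HERPUD1 (chr16:56932010-56932050, plus strand): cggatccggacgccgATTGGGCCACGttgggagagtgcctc
SDF2L1 (chr22:21642099-21642139, plus strand): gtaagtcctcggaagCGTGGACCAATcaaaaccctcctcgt

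In FICD, HSPA5 and HERPUD1 the element reads forward, and in CRELD2, ERO1B and SDF2L1 it lies on the opposite strand. It ended between 47 bases (HSPA5) and 224 bases (ERO1B) before the start. Of the 26 lower genes, 24 had a window, and 4 of those held an ERSE (16.7%) and 2 an ERSE-II (8.33%). None of the 26 windows found for the 33 higher genes held either. Over the windows of all kept genes the shares were 0.158% for ERSE and 0.119% for ERSE-II, so none in 26 is near those shares. Over all kept genes 12 had an ERSE, of which 10 were below 0, with a median of -0.60 against -0.05 for the 7577 with a window and no ERSE. Of the 9 kept genes with ERSE-II, 8 were below 0, and their median was -0.37. Those that carried an element without reaching 2-fold were, among others, CALR (-0.996), XBP1 (-0.72), HYOU1 (-0.65), SERP1 (-0.49) and CANX (-0.19). ALG12 (0.06), TMEM120A (0.26) and NUCB1 (0.25) carried one and were above 0. A match is a description of letters, not evidence that a factor was bound.

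HSPA5, the main ER chaperone (BiP), and several of its partners were lower on WDR4. FICD, the enzyme that switches BiP off by adding AMP to it, read 297 on WDR4 and 1339 on vector, against 137 on siPML and 271 on siCtrl. Its 4.50-fold lower reading (-2.17) was the lowest of all kept genes, and the WDR4 array lay close to siCtrl while vector stood above the other 3. HSPA5 itself read 367 on WDR4 and 1206 on vector, against 285 on siPML and 343 on siCtrl (-1.71). DNAJB9, a J-domain partner of BiP, read 1540 on WDR4 and 6617 on vector, against 1379 on siPML and 1067 on siCtrl (-2.10). Both genes again had vector highest, with the other 3 arrays near each other. The BiP partners SDF2L1 (-1.55), DNAJC3 (-0.77), DNAJB11 (-0.62) and the exchange factor HYOU1 (-0.65) were also lower on WDR4, whereas the exchange factor SIL1 differed by -0.12.

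CRELD2 and MANF, small ER proteins that can be secreted under stress, differed by -1.63 and -1.49. CRELD2 read 1744 on WDR4 and 5386 on vector, against 3510 on siPML and 2384 on siCtrl. MANF read 712 on WDR4 and 2000 on vector, against 1101 on siPML and 856 on siCtrl. For both, WDR4 was lowest and vector highest of the 4. Among enzymes of disulfide formation, ERO1B read 343 on WDR4 and 795 on vector (-1.21), PDIA4 differed by -0.88 and PDIA6 by -0.32, while the hypoxia-inducible oxidase ERO1A was higher by 0.54. AGR2, a disulfide isomerase of mucus-secreting cells, read 775 on WDR4 and 2018 on vector, against 2611 on siPML and 1928 on siCtrl, so here WDR4 stood below all 3 others (-1.38). Of the 42 kept genes of the list of ER chaperones and folding enzymes, 34 were below 0, with a median of -0.19. At least 2-fold lower were 7, and RCN3, a calcium-binding protein of the reticulocalbin family, was the 1 at least 2-fold higher, at 657 on WDR4 and 294 on vector (1.16). The differences were thus uneven within the list, from -2.10 in DNAJB9 to 1.16.

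Degradation of ER proteins was represented at 2-fold by HERPUD1 alone. HERPUD1, which organises the ubiquitin ligase complex at the ER membrane, read 16546 on WDR4 and 65555 on vector, against 12433 on siPML and 16827 on siCtrl. The vector reading is at the scanner's limit, so the difference of -1.99 is a lower bound on its size. The other 34 kept genes of the degradation list lay between -0.56 (SELENOS) and 0.46 (EDEM1, a mannosidase-like factor), and over the list 14 were above and 21 below 0 (median -0.06). This list is close to the all-gene median, with 1 gene far from it.

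The sensors and transcription factors of the response lay below 0 for 15 of 16 kept genes, with a median of -0.58. DDIT3, the pro-apoptotic factor CHOP, read 24436 on WDR4 and 65554 on vector, against 2320 on siPML and 3249 on siCtrl. Both plasmid arrays stood well above both siRNA arrays, the vector reading is at the limit, and -1.42 is a lower bound on the size. TRIB3, a pseudokinase induced by ATF4 and CHOP, differed by -0.93, PPP1R15A (GADD34, which restores translation) by -0.78, EIF2AK3 (PERK) by -0.77 and ATF3 by -0.75. XBP1 read 2549 on WDR4 and 4193 on vector, against 1364 on siPML and 2013 on siCtrl. ATF4 itself was nearly level, at 47582 on WDR4 and 50717 on vector (-0.09), and PPP1R15B, the constitutive counterpart of GADD34, was the 1 gene above 0 (0.25). Over this list the median for WDR4 minus siCtrl was 0.55, and that for vector minus siCtrl was 0.95. Those comparisons share the siCtrl array with each other and the plasmid arrays with WDR4 minus vector.

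**Figure D1:**
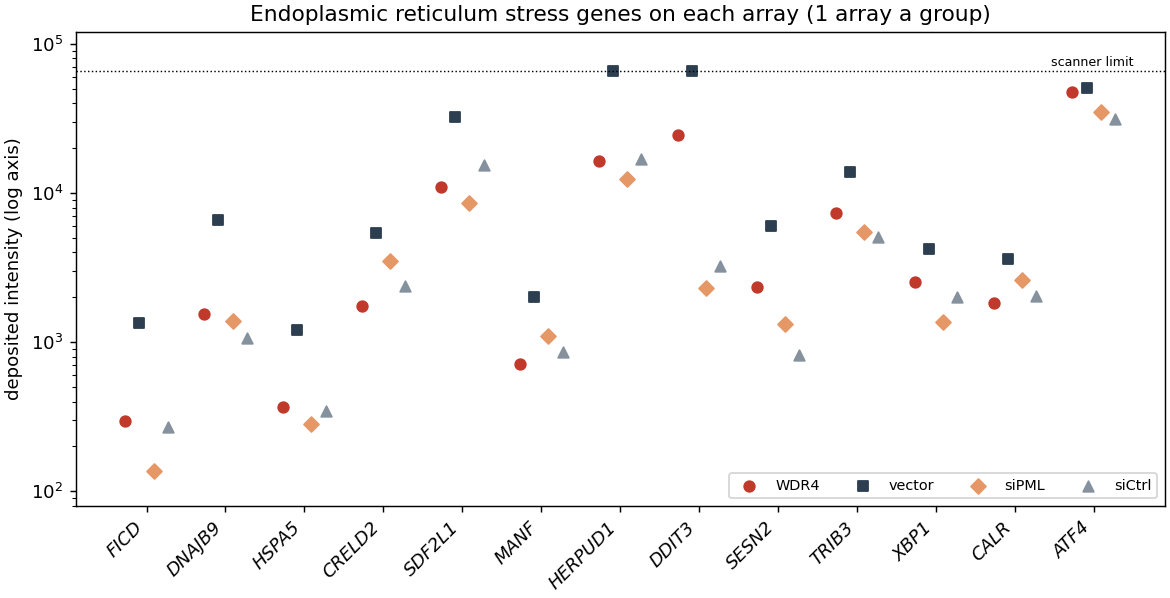
Deposited intensity (log axis) of 13 ER stress genes on the WDR4, vector, siPML and siCtrl arrays, 1 point per array. Vector is the highest of the 4 for every gene shown, at the scanner's limit for HERPUD1 and DDIT3, and WDR4 and vector differ least for ATF4.

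Targets of ATF4, which feed amino acid synthesis and import during stress, were lower on WDR4 for 29 of 36 kept genes (median -0.23). SESN2, a stress-induced inhibitor of mTORC1 that p53 and ATF4 both induce, read 2338 on WDR4 and 5993 on vector, against 1327 on siPML and 820 on siCtrl (-1.36). The transcription factor gene JDP2 differed by -0.78, the mitochondrial PEP carboxykinase PCK2 by -0.73 and the asparagine synthetase ASNS by -0.37, whereas VLDLR, a lipoprotein receptor, was higher at 447 on WDR4 and 227 on vector (0.98). Among cytosolic aminoacyl-tRNA synthetases, which charge tRNAs and include ATF4 targets, 14 of 18 were below 0, with AARS1 at -0.69 and HARS1 at 0.50. The p53 target list had 28 of 37 below 0 (median -0.25). It holds SESN2, the growth arrest genes GADD45A (-0.87) and GADD45B (-0.82) and the kinases PLK3 (-0.89) and PLK2 (-0.70), while CDKN1A (p21) read 3067 on WDR4 and 2840 on vector (0.11). Averaging all probes of each gene gave a p53 list median of -0.07.

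Steps of the secretory pathway beyond folding lay slightly below the all-gene median. GMPPB, which makes GDP-mannose for glycans, read 197 on WDR4 and 459 on vector, against 222 on siPML and 399 on siCtrl (-1.22), and the mannosyltransferase ALG2 differed by -0.93. TMEM165, a Golgi protein needed for manganese and glycosylation there, was the opposite case, at 1122 on WDR4 and 386 on vector, against 582 on siPML and 450 on siCtrl (1.54), above all 3 others. The N-glycosylation list as a whole had 14 above and 37 below 0 (median -0.13). In vesicle transport 36 of 50 kept genes were below 0 (median -0.15), with PREB, the exchange factor that starts COPII coats, at 1326 on WDR4 and 2369 on vector (-0.84) and the SNARE genes GOSR2 and STX5 at -0.67 and -0.66. For translocation into the ER, 22 of 35 were below 0, led by the signal recognition particle receptor subunit SRPRA (-0.65).

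Cytosolic chaperones were below 0 for 35 of 49 kept genes (median -0.16). HSPA1A, the inducible HSP70, read 10782 on WDR4 and 25132 on vector, against 7636 on siPML and 16495 on siCtrl (-1.22). Its near-identical copy HSPA1B differed by -0.78, and the probes may share signal. The partners DNAJB4 (-0.77), CHORDC1 (-0.69), HSPH1 (-0.53) and DNAJB1 (-0.52) were lower and DNAJA1 was higher (0.31).

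Cholesterol synthesis, whose regulator SREBP is itself matured on the route from ER to Golgi, had 20 of 23 kept genes below 0 and a median of -0.30. HSD17B7 read 818 on WDR4 and 1422 on vector (-0.80), DHCR7, the last reductase, 2089 and 3412 (-0.71), and SREBF1, the gene of the factor SREBP1, 5264 and 8081 (-0.62). HMGCS1, an early enzyme, differed by -0.52 and SQLE by -0.34, whereas INSIG1, a SREBP target that retains the factor in the ER, differed by -0.07. None reached 2-fold.

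Genes of tRNA modification, among them WDR4's partner METTL1, were mostly below 0. METTL1 read 353 on WDR4 and 523 on vector, against 355 on siPML and 375 on siCtrl (-0.57), so that vector stood above the 3 others. Of 47 kept tRNA modification enzymes, 34 were below 0 (median -0.22), WDR4 being the only one at least 2-fold different. TRMT61A, which methylates adenosines of tRNA, differed by -0.79 but by 0.57 on its second probe, TRMT10B by -0.74 (second probe -0.85), the cytosine methyltransferase NSUN3 by -0.57 and TRMT11 by -0.56, while NSUN2 was at 0.26. RNA polymerase III, which transcribes tRNAs, and its factors were below 0 for 20 of 23 kept genes, with a median of -0.26 (-0.15 with the mean over probes) and with the subunit POLR3E (-0.63) and the factor subunit BDP1 (-0.56) lowest. In ribosome biogenesis 50 of 69 genes were below 0 (median -0.21), with the nucleolar NOLC1 at -0.64 (second probe 0.22), PPAN at -0.62 (second probe -0.08) and TCOF1 at 0.63. Cytosolic ribosomal proteins ran the other way, since 34 of the 51 not at the limit on both arrays were above 0 (median 0.10), with RPS20 at 290 on WDR4 and 122 on vector (1.24), against 537 on siPML and 626 on siCtrl. Mitochondrial ribosomal proteins were at 25 above and 45 below 0 (median -0.08).

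Subunits and regulators of CUL4 ligases were close to the background, at 11 above and 21 below 0 (median -0.11), and none of the 32 reached 1.5-fold. The scaffolds CUL4A (-0.12) and CUL4B (0.13) and the adaptor DDB1 (0.03) were near 0, and the ring protein RBX1 was at 0.51. PML read 5015 on WDR4 and 3840 on vector, against 506 on siPML and 853 on siCtrl (0.38), so both plasmid arrays stood above both siRNA arrays. Among the 18 kept nuclear body partners 8 were above 0, with SUMO3 at 0.80 and the kinase HIPK2 at 0.61. RNA levels do not read degradation of the PML protein.

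**Figure D2:**
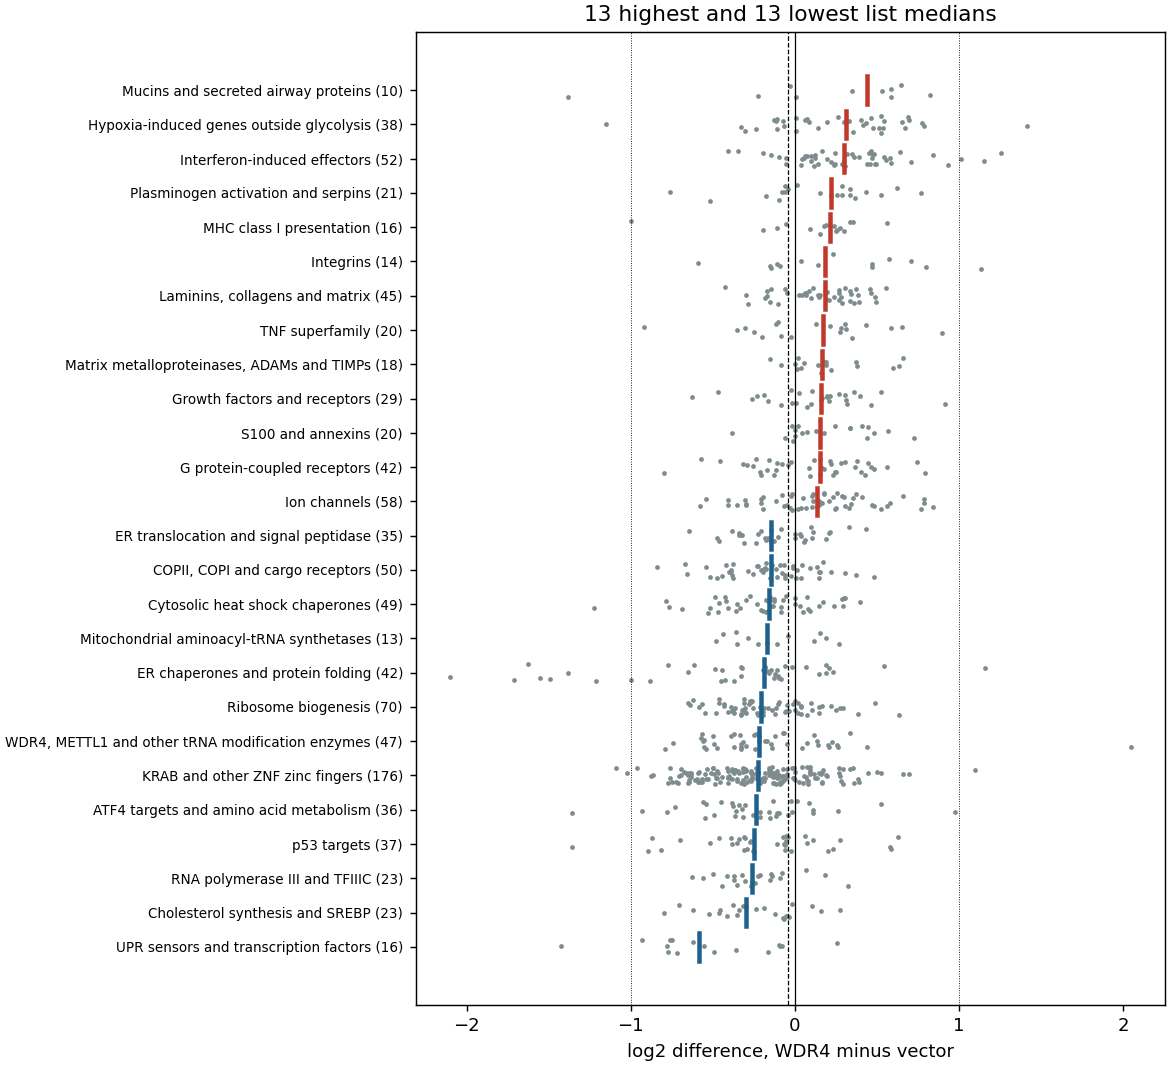
Log2 difference, WDR4 minus vector, of every kept member (grey points) of the 13 gene lists with the highest and the 13 with the lowest medians among lists with at least 10 kept members, with the number kept in brackets, coloured bars at the medians and a dashed line at the all-gene median of -0.04. The unfolded protein response regulators stand lowest (-0.58), and most medians lie within 0.3 of 0 while single members lie far outside.

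EGR1, an immediate early transcription factor made within minutes of a growth or stress signal, read 883 on WDR4 and 3797 on vector, against 671 on siPML and 353 on siCtrl (-2.10). Vector was the highest array by far. Its class did not differ by as much, since FOS was at -0.15 and JUND at -0.65, and 22 of 31 members not at the limit were below 0 (median -0.13). IFRD1, a stress-induced transcriptional coregulator, read 582 on WDR4 and 1403 on vector, against 309 on siPML and 145 on siCtrl (-1.27). EFNA1, an ephrin ligand, read 10716 on WDR4 and 23759 on vector (-1.15), and its further probe, at 323 and 638, differed by -0.98.

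CDC6, which licenses replication origins, read 1062 on WDR4 and 3251 on vector, against 1340 on siPML and 2168 on siCtrl (-1.61). WDR4 was the lowest of the 4 arrays. Its list did not follow, as 28 of 57 kept E2F and replication genes were above 0 (median -0.01), with GINS1 at 0.58 and TYMS, thymidylate synthase, at 0.55. Mitosis genes were at a median of 0.02 with 37 of 65 above 0. The kinase DYRK1B read 730 on WDR4 and 1985 on vector, against 1081 on siPML and 1926 on siCtrl (-1.44), also lowest on WDR4. The rest of the lower genes were RWDD2A (-1.26), ANKRD9 (-1.14), WDR5B (-1.10), FBXO16 (-1.08), FAM24B (-1.05), CDK2AP2 (-1.02) and the zinc finger genes ZNF416 (-1.09) and ZNF79 (-1.02). Zinc finger genes were the most numerous list, and 133 of 176 were below 0 (median -0.22, and -0.07 without the filter). Against siCtrl their median was 0.28 on WDR4 and 0.51 on vector.

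On the higher side, HEXA, the alpha subunit of lysosomal hexosaminidase, read 22524 on WDR4 and 6924 on vector, against 21525 on siPML and 12502 on siCtrl (1.70). Vector was the low array here, and WDR4 was near siPML. The further HEXA probe read 2181 on WDR4 and 2371 on vector (-0.12), so this 3.25-fold difference rests on 1 probe. The lysosome list had 28 of 50 above 0 (median 0.05), with HEXA the only one at 2-fold. MIGA1, a mitochondrial outer membrane protein that acts in fusion, read 359 on WDR4 and 115 on vector (1.64), again with vector lowest of the 4.

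Interferon-induced effectors were above 0 for 45 of 52 kept genes, with a median of 0.30. IFIT2, an RNA-binding antiviral protein, read 5051 on WDR4 and 2117 on vector, against 53.8 on siPML and 52.3 on siCtrl (1.25). Both plasmid arrays stood far above both siRNA arrays, and WDR4 above vector. ZC3HAV1, the antiviral protein ZAP, read 2417 on WDR4 and 1087 on vector, against 1050 on siPML and 1287 on siCtrl (1.15), so by this probe WDR4 alone was high. Its further probe read 680 on WDR4 and 593 on vector, against 204 on siPML and 188 on siCtrl (0.20), so there both plasmid arrays were high. PNPT1, a mitochondrial ribonuclease, read 1805 and 893 (1.01; further probe 0.49), and APOL2 and SAMD9 were higher by 0.94 and 0.84. Among the best known genes of the response, MX1 differed by 0.04, IFI44L by 0.06 and ISG15 by 0.32, and IFIT1 read 53035 on WDR4 and 46225 on vector (0.20; second probe 0.61). Against siCtrl the list median was 3.29 on WDR4 and 2.89 on vector, so the step between WDR4 and vector was small beside that between either plasmid array and siCtrl, which differ in the kind of transfection too.

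Of the sensors that start that response, TRIM25, the ubiquitin ligase that activates RIG-I, read 1600 on WDR4 and 674 on vector, against 472 on siPML and 414 on siCtrl (1.25), IFIH1 (MDA5) differed by 0.76 and TLR3 by 0.65. The sensor list as a whole had 11 above and 13 below 0, and STAT, IRF and JAK genes 11 and 17. Antigen presentation by MHC class I had 12 of 16 above 0 (median 0.21), with the proteasome activator subunit PSME2 at 0.56, and with the ER chaperone CALR at -0.996, at 1824 on WDR4 and 3638 on vector, just short of 2-fold. The core of the interferon-stimulated response element, GAAA repeated after 2 bases of any kind, was in 3.65% of all windows and in 64.3% of the 42 windows found for the effector list. Over the 219 kept genes that held it the median was 0.06, against -0.05 for those without.

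Hypoxia-induced genes outside glycolysis had 28 of 38 above 0 and a median of 0.31. ANGPTL4, a secreted inhibitor of lipoprotein lipase, read 7902 on WDR4 and 2957 on vector, against 13282 on siPML and 9406 on siCtrl (1.42), so vector was low and WDR4 did not exceed siCtrl. TMEM45A was higher by 0.79, the lipid droplet protein HILPDA by 0.78, the collagen cross-linking enzyme LOX by 0.70, adrenomedullin (ADM) by 0.69, CA9, a carbonic anhydrase, by 0.65 and VEGFA by 0.53. EFNA1, also hypoxia-induced, was the exception at 2-fold. Glycolysis genes did not share this, at 22 above and 25 below 0 (median -0.01), although the pyruvate kinase PKLR read 378 on WDR4 and 143 on vector (1.39). HIF1A, the hypoxia factor, read 8385 on WDR4 and 11720 on vector (-0.48), but its second probe differed by 0.36.

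Cell surface and matrix lists leaned upwards by small amounts. Integrins were above 0 for 9 of 14 (median 0.19), with ITGB6, a TGF-beta activating integrin subunit, at 320 on WDR4 and 145 on vector (1.13), its partner ITGAV at 0.80 and ITGA6 at 0.71, while ITGAE differed by -0.59. Laminins, collagens and other matrix genes were above 0 for 34 of 45 (median 0.18) with none at 1.5-fold, and COL5A1 was highest (0.56). Matrix proteases and their inhibitors were above 0 for 15 of 18 (median 0.17), S100 and annexin genes for 14 of 18 (median 0.21 without those at the limit) and ion channels for 38 of 58 (median 0.14). With the filter raised to the upper quartile the ion channel median was -0.00061, and dim genes in general were higher on WDR4. PMEPA1, a TGF-beta induced inhibitor of that pathway, read 2910 on WDR4 and 1211 on vector, against 2626 on siPML and 2384 on siCtrl (1.26), with vector the low array. Of the 10 kept mucins and secreted airway proteins 7 were above 0, among them TFF1 (0.83) and MUC1 (0.65), against AGR2 at -1.38.

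The remaining higher genes came from no one list. Signalling and transcription genes were LMTK2 (1.37), the corepressor TBL1X (1.36), protein kinase C alpha (PRKCA, 1.28; further probe 0.20), MSANTD3 (1.26), NPB (1.19), NME1, a nucleoside diphosphate kinase (1.17), ZNF500 (1.10), SBNO1 (1.05) and ATXN1 (1.02). Membrane and secretory genes were CREG1 (1.16), TGOLN2, the trans-Golgi protein TGN46 (1.15), NIPAL3 (1.14; further probe 0.09), GLB1L2 (1.11), TMEM14A (1.06) and VWCE (1.04). The others were OR4K5 (1.27), VHLL (1.12), the histone gene H4C8 (1.09), which has near-identical copies, and DLG1-AS1 (1.04), an antisense RNA. A probe with several symbols, all of histone H4 copies, went the other way, at 3814 on WDR4 and 9852 on vector (-1.37).

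Lists for basic functions stayed near the all-gene median. Housekeeping genes were at 11 above and 10 below 0 (median 0.00), respiratory chain genes at 44 and 42 (0.01), the proteasome at 22 and 26 (-0.02), and solute carriers at 81 and 85 (-0.01). None of the 21 housekeeping genes and none of the 48 proteasome genes reached 1.5-fold. Of the 59 genes at least 2-fold different, 33 belonged to at least 1 of the 96 lists, as did 3252 of the 9128 kept genes. The lists were chosen with earlier results of these data known, so the 2 shares are not independent.

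The siRNA control was used to place both plasmid arrays. For all 26 lower genes vector lay above siCtrl (57.2% of all kept genes). The excess was at least 2-fold for 17 of them (9.43% of all kept genes). WDR4 was within 2-fold of siCtrl for 18 and at least 2-fold above it for 4, DDIT3, EGR1, SESN2 and IFRD1. WDR4 was at least 2-fold below both controls for 4, CDC6, DYRK1B, AGR2 and GMPPB, and below siCtrl by as much for 3.11% of all kept genes. For the 33 higher genes vector lay below siCtrl in 29 (42.8% of all kept genes), and WDR4 was within 2-fold of siCtrl in 25 and at least 2-fold above both controls in 7, which were WDR4, TMEM165, PKLR, LMTK2, IFIT2, TRIM25 and PNPT1. Over all kept genes WDR4 exceeded siCtrl by 2-fold or more for 8.13% and was lower by as much for 3.11%. All others were within 2-fold, so WDR4 was within 2-fold of siCtrl less often for these 26 and 33 genes than in general. A gene chosen for a high or low vector value tends to have vector outside siCtrl too, as the comparisons share that array. In siPML minus siCtrl, which shares no array, 25 of the 33 higher genes were above 0, against 51.1% of all kept genes, with none at 2-fold. Of the 26 lower genes 13 were below 0 there (48.9% of all kept genes), and EFNA1 (-1.54), ERO1B (-1.34) and HSPA1A (-1.11) were at least 2-fold lower on siPML (4.27% of all kept genes).

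**Figure D3:**
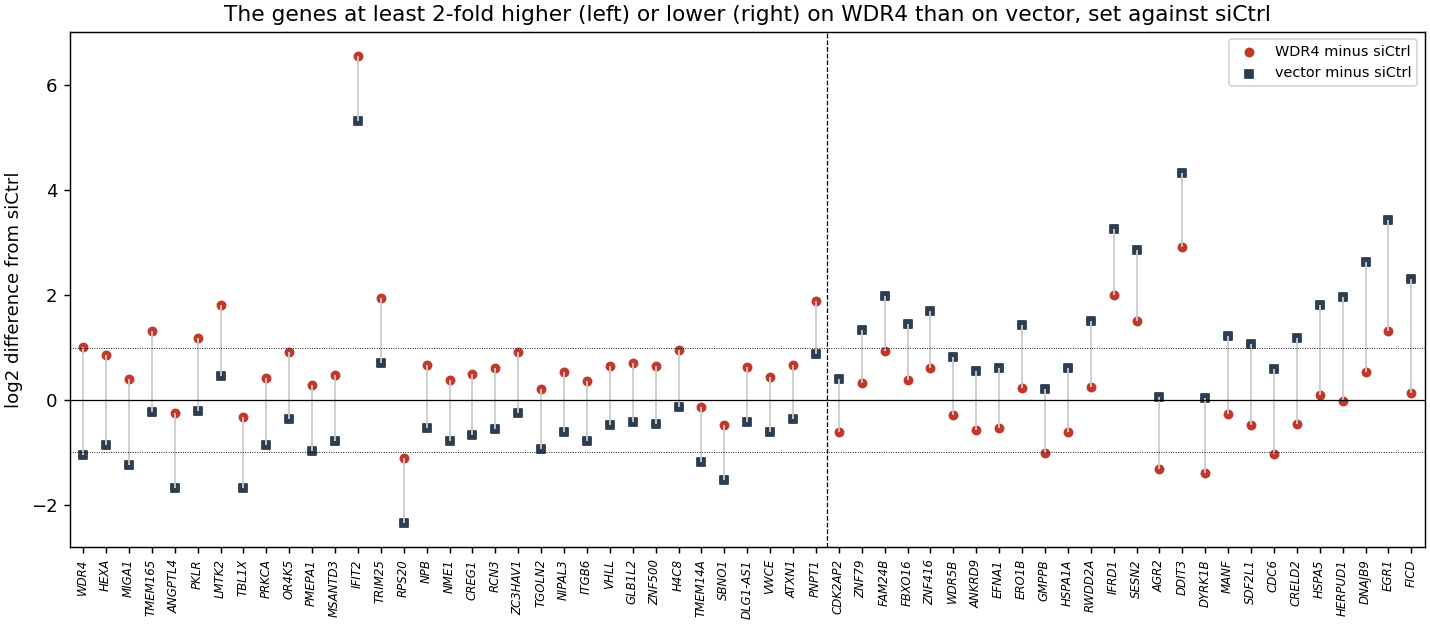
Log2 difference from siCtrl of the WDR4 array (circles) and the vector array (squares) for the 33 genes at least 2-fold higher (left of the dashed line) and the 26 at least 2-fold lower (right) on WDR4 than on vector, with dotted lines at 2-fold. The WDR4 circle lies between the dotted lines for 25 of the 33 and 18 of the 26 genes. Both shares are smaller than that over all kept genes. IFIT2 and DDIT3 are far above siCtrl on both plasmid arrays.

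A further probe for the same gene reads the same RNA through another sequence. Among the 33 higher genes 7 had another probe above the filter, of which 5 were above 0 and 1, TGOLN2 at 297 on WDR4 and 140 on vector (1.08), reached 2-fold. The median of the 7 was 0.20. Only EFNA1 of the 26 lower genes had one. Hence for most of the genes named above, the ER stress genes included, the value rests on 1 probe of 1 array pair. Across the 1745 genes with 2 probes above the filter the differences had the same sign for 59.8%, and for 77.3% of the 88 that were at least 1.5-fold different by the brighter probe. Pearson's r across the 1745 genes, which are not independent replicates and share both arrays, was 0.30. It was 0.33 without KIF13A, left out after its values were seen, whose second probe read 829 on WDR4 and 6.98 on vector, against 1030 on siPML and 1945 on siCtrl (6.70), while its brighter probe differed by 0.15. Among the genes named above, the second probe was near that of the brighter one for TRIB3 (-0.93), PCK2 (-0.77), GOSR2 (-0.75), SREBF1 (-0.58), SELENOS (-0.56), HSPH1 (-0.49), HILPDA (0.78) and LOX (0.77). It was nearer to 0 for VEGFA (0.15), MUC1 (0.19), COL5A1 (0.26), ITGAV (0.03) and PML (0.03).

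**Figure D4:**
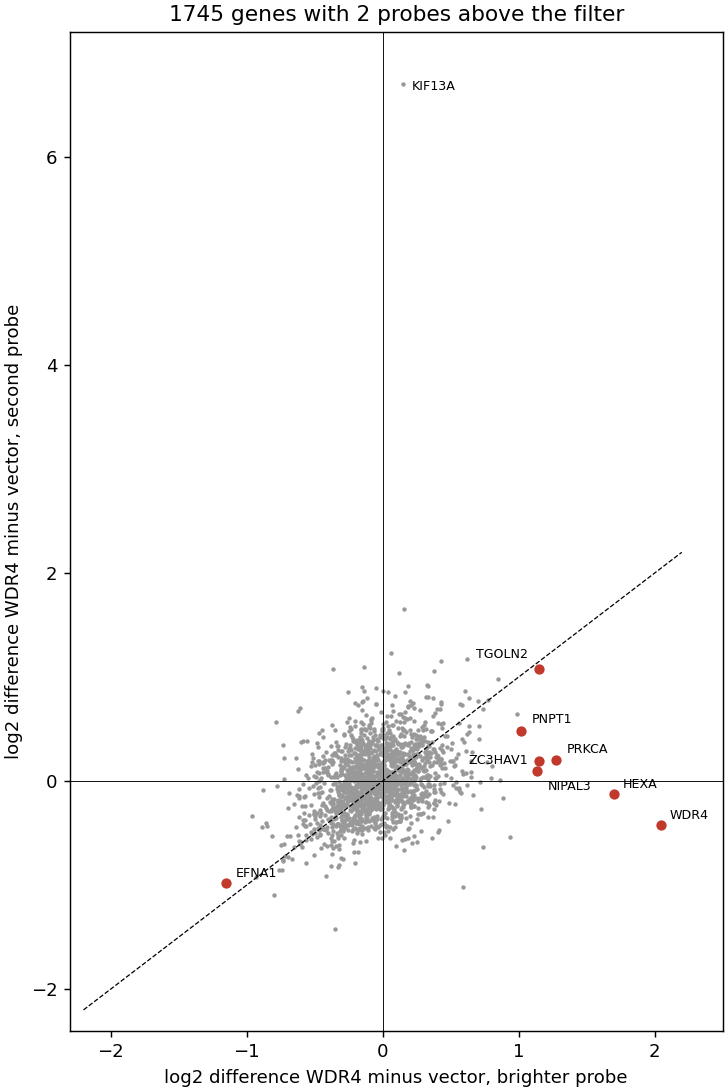
Log2 difference, WDR4 minus vector, by the second probe against that by the brighter probe for the 1745 genes with 2 probes above the filter, with the line of equality dashed and genes at least 2-fold different by the brighter probe in red. TGOLN2 and EFNA1 lie near the line, WDR4 and HEXA lie below 0 by the second probe, and KIF13A lies far above the rest at 6.70.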

How the data were processed

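The deposited values are linear intensities, 1 for each probe on each array. Per the labels' protocols, total RNA was purified with a kit and its amplified product was labelled with Cy5. Scanner, software, background correction and normalization are named in no source used here. The number of arrays limits the precision.

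The log2 of the value plus 1 was used, with negative values raised to 0 first. Of 31741 probes, 24658 carried 1 symbol in the platform annotation (22404 current, 2177 updated, 77 unmatched), 1002 several and 6081 none, and only the first were named. A gene was its probe with the highest mean log2 value, kept at a mean of 7.81 (the median of all genes) or more. No test was run. Paired readings were recovered because 99.1% of the dim values on WDR4 and on vector equalled the mean of 2 scaled whole numbers. The 2-fold call and the recovery of paired readings were run on simulated data, with planted changes larger than 2-fold and a noise set beforehand. Such a run checks the code, and says nothing about the spread between cultures. The gene lists and the promoter search were not run on simulated data.

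The members, the 96 gene lists and the comparisons were chosen with earlier results of these data known. Named genes were WDR4 and its partners, all genes at least 2-fold different, up to 6 members per list with the largest absolute difference, and members that define a list's role. Promoters were RefSeq windows (GRCh38.p14). Alternatives were quantile normalization, centring, no or a stricter filter, a filter on the WDR4 and vector arrays alone, the mean over probes, 1.5-fold, a pseudocount of 16, removal of a running median over 501 genes, and omission of genes at the limit of the scanner. Python 3.11.15, numpy 2.4.6, pandas 2.3.3 and matplotlib 3.10.9 were used.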

Additional observations from a re-analysis of the deposited data

Results flagged for a closer look

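Probes without a single gene symbol took no part in the comparison, and some of them read well above the vector array on WDR4. Over the 9128 kept genes, 33 (0.362%) were higher and 26 (0.285%) lower by 2-fold or more, and the counts that follow are read beside these shares. Of 1288 probes with no symbol above the filter, 8 were higher and 4 lower by as much. Of 443 with several symbols, 1 was higher and 3 were lower. The highest, PH_hs_0033270 with no symbol, read 1142 on WDR4 and 379 on vector, and 1132 on siPML and 393 on siCtrl (1.59 for WDR4 minus vector). A probe with several symbols read 3296 on WDR4 and 1239 on vector (1.41). Further ones without a symbol differed by 1.40, 1.26 and 1.23.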

How the results depend on the processing

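The 59 genes at least 2-fold different kept their direction under every alternative in which they were still measured. The WDR4 difference of 2.05 was 2.18 after quantile normalization, 2.13 with the level trend removed and 0.81 as the mean over its probes. Without the filter 404 genes were at least 2-fold higher and 81 lower, against 11 and 14 with the filter at the upper quartile, which tests fewer genes, and 282 and 305 at 1.5-fold. After centring 53 of the 59 genes stayed at least 2-fold different, and 45 with the mean over probes. Of 17 list medians at 0.2 or more from 0, 1 changed sign in 149 values, that of the 5 kept cancer-testis antigens, -0.22 in the report's setting and 0.44 without the filter. The median of the unfolded protein response regulators ranged from -0.66 to -0.36 and that of the interferon effectors from 0.22 to 0.34. No paired analysis was possible because each group has 1 array. Readings at the scanner's limit compress differences, and dim values carry larger reading error.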

Other observations

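Among the kept genes and the probes above the filter without a single symbol, the 2 lowest differences were on such probes. PH_hs_0000400, with none, read 260 on WDR4 and 5338 on vector, against 166 on siPML and 120 on siCtrl, which was 20.5-fold lower (-4.36). PH_hs_0049600, with several, read 278 on WDR4 and 5218 on vector, against 113 on siPML and 136 on siCtrl, which was 18.7-fold lower (-4.23). On both, vector alone was high. A difference larger in size was that of the dimmer KIF13A probe, at 829 on WDR4 and 6.98 on vector (6.70), where vector alone was low. PH_hs_0049741, with several symbols, read 306 on WDR4 and 1014 on vector (-1.72). PH_hs_0023143, with none, read 576 on WDR4 and 1722 on vector, against 1899 on siPML and 1743 on siCtrl (-1.58), so here WDR4 alone was low.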
